A study of Mus musculus with 12 samples.

Results

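The neutrophil granule and surface genes are 36 genes that were listed by symbol, with earlier results of these data known. All 36 have a row in the deposited count table of 25284 genes. They were followed in the thoracic aorta of 12 male ApoE-/- mice of C57BL/6 background on a high fat diet with cholesterol, and every mouse, controls included, lacks Apoe. From 10 weeks of age, 6 mice (A1 to A6) received AZ6983, an agonist of the α7 nicotinic acetylcholine receptor, at 50 µmol per kg per day from an osmotic minipump. The other 6 mice (C1 to C6), the controls, had a pump with the cyclodextrin vehicle, and all were 18 weeks old after 8 weeks of treatment. Each mouse is 1 library of total RNA from which ribosomal RNA had been removed, and the question was whether neutrophil transcripts in the vessel differed between the groups, and of which stage of the cell they were.

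Neutrophils are short-lived white cells that kill microbes with proteins stored in granules. They fill these granules in order while they mature in bone marrow: the serine proteases and myeloperoxidase of the azurophil granules are transcribed in early precursors, lactoferrin and the other proteins of the specific granules in later precursors, and the S100 proteins of the cytosol and the receptors for chemokines and growth factors in cells close to release. Mature neutrophils in blood and tissue keep the late transcripts and have lost most of the early ones, so the 3 stages were read separately, with Mpo, Elane, Prtn3 and Ctsg as early, Ltf, Ngp and Camp as middle, and S100a8, Csf3r and Cxcr2 as late genes.

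The 250 bases before the listed start site are shown for 5 genes, 3 of the middle stage and 1 each of the late and early stages, because C/EBP factors and PU.1 are the transcription factors that granule genes are known for. The sequences are RefSeq's, on build GRCm38.p6 and on the strand of the gene. Capitals mark matches to TTNNGCAA, a form of the C/EBP site, or GAGGAAGT, a form of the PU.1 site, on either strand. The windows lie at chr9:111019042-111019291 (plus strand) for Ltf, chr9:110419558-110419807 (plus) for Ngp, chr9:109849457-109849706 (minus) for Camp, chr3:90668821-90669070 (plus) for S100a8 and chr10:79886062-79886311 (plus) for Elane.
Ltf: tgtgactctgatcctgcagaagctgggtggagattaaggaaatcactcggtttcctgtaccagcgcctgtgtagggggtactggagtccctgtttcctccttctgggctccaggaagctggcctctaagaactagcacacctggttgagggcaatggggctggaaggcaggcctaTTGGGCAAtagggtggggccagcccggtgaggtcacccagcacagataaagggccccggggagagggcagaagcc
Ngp: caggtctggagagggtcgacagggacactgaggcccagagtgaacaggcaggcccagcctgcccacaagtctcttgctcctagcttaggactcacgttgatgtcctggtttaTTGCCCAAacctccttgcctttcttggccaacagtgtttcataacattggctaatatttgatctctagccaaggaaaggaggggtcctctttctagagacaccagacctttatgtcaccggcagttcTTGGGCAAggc
Camp: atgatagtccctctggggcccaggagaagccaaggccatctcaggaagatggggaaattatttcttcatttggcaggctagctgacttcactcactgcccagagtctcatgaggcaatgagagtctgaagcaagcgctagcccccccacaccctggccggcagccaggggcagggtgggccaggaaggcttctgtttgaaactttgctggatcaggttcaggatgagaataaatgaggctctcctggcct
S100a8: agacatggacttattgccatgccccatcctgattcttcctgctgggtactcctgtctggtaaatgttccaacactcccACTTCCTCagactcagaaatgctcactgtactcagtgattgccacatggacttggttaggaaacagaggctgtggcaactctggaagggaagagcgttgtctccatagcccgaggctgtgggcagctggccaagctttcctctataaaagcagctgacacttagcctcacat
Elane: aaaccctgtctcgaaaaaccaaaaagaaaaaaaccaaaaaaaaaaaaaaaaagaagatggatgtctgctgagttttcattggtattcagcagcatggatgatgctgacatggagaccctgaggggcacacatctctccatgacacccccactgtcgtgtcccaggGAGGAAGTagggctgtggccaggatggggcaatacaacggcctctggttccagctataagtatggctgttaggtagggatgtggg
The C/EBP letters begin 75 bases before the start site of Ltf, and 138 and 11 bases before that of Ngp. These start sites are RefSeq's, and GENCODE, the source of the gene positions given below, begins each of the 5 genes further ahead. Each window therefore lies partly inside the gene by GENCODE, as does the Ngp match at 11 bases. The PU.1 letters begin 172 bases before the start of S100a8 and 85 bases before that of Elane. Camp holds neither in this window. With 50 bases past the start site added to each window, 11 of the 33 members in the promoter table hold the C/EBP letters, against 10.8% of all 32851 promoters, and 8 of 33 hold the PU.1 letters, against 3.20% of all. The 2 motifs do not overlap in the sequences shown, and a match of letters is a description of the window, not of binding.

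Counts on genes ranged from 25641329 to 29131708 per control mouse and from 23810036 to 35864666 per AZ6983 mouse. Reads that fell on no gene were 8.02% to 12.7% of the table in controls and 11.2% to 14.9% in AZ6983 mice, so this measure of the libraries moved with the groups. Smooth muscle genes, which define the tissue, were abundant in every mouse, with Myh11 (smooth muscle myosin) at 5463 to 6923 CPM in controls and 4551 to 7014 CPM in AZ6983 mice. CPM are counts scaled to a common total after normalization by edgeR's TMM method. The library of mouse A4 stood apart in lymphocyte genes: the summed level of 8 T cell genes was 407 CPM in A4 and at most 20.6 CPM in any control. The library of A5 differed most from the others over all genes. Between the counts of 2 libraries, the chi-square per degree of freedom was 77.8 to 226 in pairs with A5. It was at most 68.7 in any other pair. A5 also had the lowest sum of smooth muscle genes, 10135 CPM.

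Most members were higher on average in AZ6983 than in control aortas, but with wide overlap between the mice, and whether any was called depended on the test. In edgeR's quasi-likelihood test 0 of the 21 members that passed the filter on low counts had an adjusted p under 10% FDR, as was the case for 0.0% of all 15857 genes tested. At an unadjusted p under 0.05, 14 of these 21 were higher in AZ6983, against 7.38% of all genes, and 0 were lower, against 2.81%. The log2 fold change was above 0 in 20 of 21, against 52.4% of all genes, with a median of 1.23 against 0.01 over all genes. In none of the 21 did the groups separate in full, which they did, with AZ6983 higher, in 0.259% of all genes. The 15 other members had too few counts, and since a gene could enter through high counts in 1 group, the counts over the 21 describe those genes and not the whole list. Without that filter all 36 were fitted, 34 were higher, 23 had an unadjusted p under 0.05 (6.45% of all genes did, in that direction) and 0 passed 10% FDR. DESeq2 with its defaults on every gene called 7 members higher at 10% FDR out of 26 with an adjusted p, against 0.369% of all genes: Ltf, Ngp, Camp, Cd177, Pglyrp1, Stfa2l1 and Csf3r. These genes are also in the study's own list, which was drawn from these same mice, so their calls and directions are not independent evidence. The members as a whole were listed with earlier results of these data known. The shares and medians of members above therefore describe the list and are not independent evidence either. In bulk tissue more cells of a type and more RNA per cell cannot be told apart.

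**Figure D1:**
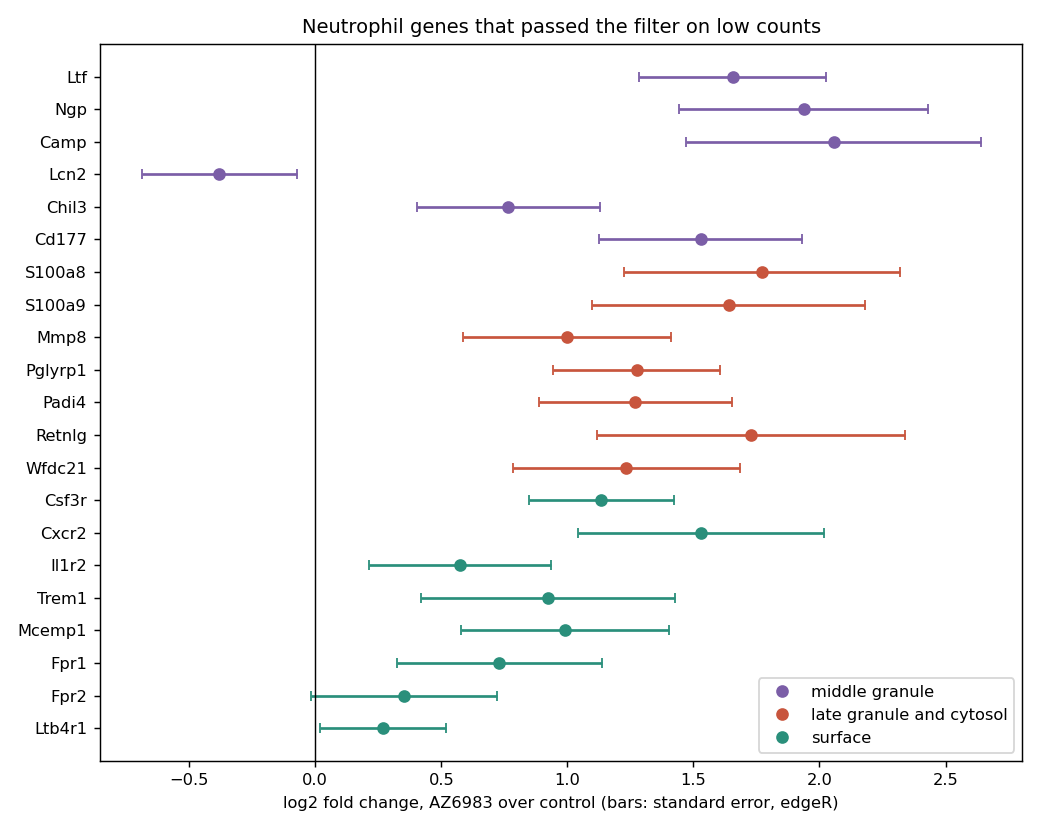
Log2 fold change of AZ6983 over control (horizontal axis) for the 21 members that passed the filter on low counts, with bars for the standard error from edgeR and colours for the role of the gene. All points but that of Lcn2, at -0.38, lie above 0, and Camp is highest at 2.06.

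The early genes were scarce in every aorta. Elane, which encodes neutrophil elastase, had 0 to 1 counts per control mouse with a median of 0.5, and 1 to 12 per AZ6983 mouse with a median of 3.5. In 5 of 6 AZ6983 mice Elane was above every control, and A5 held the most. The group sums were 3 counts in controls and 26 in AZ6983, a ratio of 8.54 after scaling by the libraries' totals, with a 95% counting interval of 2.62 to 44.1, and the difference in mean log2 CPM (with a prior count of 2 in all log2 CPM values) was 1.19 (exact permutation test, two-sided, p = 0.00433). Without A5 the ratio was 5.56, with an interval of 1.55 to 30.2. Such intervals cover counting error only, not the spread between mice.

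Mpo, which encodes myeloperoxidase, the enzyme that makes hypochlorous acid, had 0 to 8 counts per control (median 4) and 4 to 34 per AZ6983 mouse (median 7.5). The highest value was again in A5, and 3 AZ6983 mice were above every control. Its difference of 1.21 log2 CPM did not pass 0.05 in the exact permutation test (p = 0.0541), although without C2, C6, A2 or A3 it did, with p of 0.0346 to 0.0476. Prtn3, the gene of proteinase 3, had 1 to 17 counts per control (median 5) and 5 to 14 per AZ6983 mouse (median 11), with the top value in control C4 (exact permutation p = 0.104, and 0.00866 without C4). Ctsg, which encodes cathepsin G, had 0 to 5 counts per control (median 1.5) and 0 to 11 per AZ6983 mouse (median 4.5), with 2 AZ6983 mice above every control (exact permutation p = 0.236). Ms4a3, a membrane protein of granulocyte precursors, had 1 count over all controls and 7 over all AZ6983 mice. Summed over Mpo, Elane, Prtn3 and Ctsg there were 7 to 17 counts per control (median 12) and 13 to 64 per AZ6983 mouse (median 27), where A5 had 64, A1 39 and A2 13. In all, 73 counts in controls stood against 187 in AZ6983, a ratio of 2.52 (95% counting interval 1.92 to 3.36), and without A5 it was 2.01 (1.49 to 2.72).

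Both regulators of granulocyte precursors on the list were low too. Cebpe, the C/EBP factor that switches on the specific granule genes, had 0 to 2 counts per control and 1 to 5 per AZ6983 mouse. Gfi1, a repressor that acts in granulocyte precursors and also in developing T cells, had 3 to 12 counts per control, and 323 counts in A4 with 5 to 11 in the other AZ6983 mice. The T cell genes of A4 moved with this value, as given above, and their part in it was not tested.

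Among the members Ltf, a middle gene, had the smallest adjusted p in both edgeR and DESeq2. It encodes lactoferrin, the iron-binding protein of the specific granules, and lies at chr9:111019271-111042767. Its level was 1.53 to 6.25 CPM in controls with a median of 2.69, and 3.81 to 16.3 CPM in AZ6983 mice with a median of 8.47. In 5 of 6 AZ6983 mice it was above the highest control, C2, and only A2 lay among the controls. The means were 3.10 ± 1.64 and 9.74 ± 4.48 CPM (SD, n = 6 each), which is a log2 fold change of 1.66 with a standard error (SE) of 0.370. The adjusted p was 0.428 in edgeR's quasi-likelihood test and 0.00654 in DESeq2, and the exact permutation test gave p = 0.00433. DESeq2 called Ltf in 12 of 12 fits that each left out 1 mouse, with adjusted p up to 0.0670.

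Ngp, at chr9:110419747-110423012, encodes neutrophilic granule protein, a cystatin-like relative of the cathelicidins. It ran from 0.595 to 3.64 CPM in controls (median 1.15) and from 1.62 to 10.8 CPM in AZ6983 mice (median 4.96). C2 was far above the other controls, and 4 AZ6983 mice were above C2, while A2 and A4 were not. The log2 fold change was 1.94 (SE 0.494), with an adjusted p of 0.447 in edgeR and 0.0267 in DESeq2 (exact permutation p = 0.00649). DESeq2 kept this call in 9 of 12 fits with a mouse left out. Camp, at chr9:109847379-109849617, encodes the cathelicidin antimicrobial peptide. It had 2 to 33 counts per control (median 9) and 18 to 101 per AZ6983 mouse (median 43), or 0.311 against 1.64 CPM by the medians. C2 again had the most among controls, and 4 AZ6983 mice were above it. For Camp the log2 fold change was 2.06 (SE 0.583), the adjusted p 0.447 in edgeR and 0.0811 in DESeq2 (exact permutation p = 0.00866), and 5 of the 12 fits kept the DESeq2 call. C2 was also the control with the largest share of reads on no gene, 12.7%, within the range of the AZ6983 mice.

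The other members of the middle stage gave mixed values. Cd177, a surface protein that neutrophils keep in specific granules, was at 0.414 to 1.19 CPM in controls (median 0.574) and 0.575 to 3.84 CPM in AZ6983 mice (median 1.8). It was above every control in 4 AZ6983 mice, and its log2 fold change was 1.53 (SE 0.402, adjusted p 0.447 in edgeR and 0.0694 in DESeq2), and DESeq2 kept the call in 5 of 12 fits. Lcn2, the iron-siderophore binding protein lipocalin 2, which macrophages and epithelia make as well, was at 6.03 to 23.4 CPM in controls (median 10.1) and 7.03 to 15.1 CPM in AZ6983 mice (median 7.45). Its top mouse was control C6, and no AZ6983 mouse lay above the controls. Its log2 fold change was -0.38 (SE 0.308, adjusted p = 0.651 in edgeR). Chil3, a chitinase-like protein that macrophages share, ran from 1.59 to 5.99 CPM in controls and from 2.12 to 8.99 CPM under AZ6983, with a log2 fold change of 0.77 (SE 0.362, adjusted p = 0.497 in edgeR). Of its 75-base stretches, 13.0% also occur in Chil4 or another gene, so its counts are less certain than those of Ltf, Ngp and Camp, which share none. Itgb2l, an integrin chain found in granulocytes, had 1 to 5 counts per control and 1 to 36 per AZ6983 mouse, the most in A6. Fcnb, which encodes ficolin B, had 6 counts in all controls and 15 in all AZ6983 mice.

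All 7 late genes of granule and cytosol were higher at an unadjusted p under 0.05 in edgeR, against 7.38% of all genes, with adjusted p of 0.447 to 0.466. They were read in the same mice, with A6 the highest AZ6983 mouse in each, so they are not 7 separate results. S100a8 and S100a9 encode the chains of calprotectin, which holds zinc and manganese away from microbes and is the main protein of the neutrophil cytosol. Per kilobase of exon they had the highest levels of all members, 31.0 CPM for S100a9 and 15.7 CPM for S100a8 in controls. S100a8, at chr3:90668978-90670035, was at 3.30 to 15.8 CPM in controls (median 13.8) and 9.06 to 84.1 CPM in AZ6983 mice (median 30.9). A1, A3, A4 and A6 were above every control, A2 and A5 were among the controls, and C5 and C6 were lowest. The means were 10.9 ± 5.6 and 37.3 ± 28.4 CPM (SD, n = 6 each), with a log2 fold change of 1.77 (SE 0.549, adjusted p 0.447 in edgeR and 0.195 in DESeq2). The exact permutation test gave p = 0.0325, which went over 0.05 when C5, C6, A1, A3, A4 or A6 was left out (0.0606 to 0.0649). S100a9 lies on the same chromosome and followed S100a8 closely: it ran from 4.97 to 27.7 CPM in controls and from 12.5 to 106 CPM under AZ6983, with a log2 fold change of 1.64 (SE 0.543). In every mouse there were between 57.0 and 79.0 counts of S100a8 per 100 of S100a9.

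Retnlg, a resistin-like secreted protein of neutrophils, was at 0.277 to 3.35 CPM in controls (median 1.56) and 1.26 to 11.8 CPM in AZ6983 mice (median 4.30), a log2 fold change of 1.73 (SE 0.612). Pglyrp1, a granule protein that binds bacterial peptidoglycan, ran from 0.555 to 1.11 CPM in controls (median 0.834) and from 0.935 to 3.47 CPM in AZ6983 mice (median 2.05). Both genes had 4 AZ6983 mice above every control. For Pglyrp1 the log2 fold change was 1.27 (SE 0.330), DESeq2 gave an adjusted p of 0.0724, and 5 of 12 fits with a mouse left out kept that call. Padi4, the arginine deiminase that citrullinates histones when neutrophils cast out chromatin, had 6 to 14 counts per control and 7 to 45 per AZ6983 mouse. It was above every control in 5 of 6 AZ6983 mice (log2 fold change 1.27, SE 0.383). Mmp8, the neutrophil collagenase, and Wfdc21, a small secreted protein with a whey acidic protein domain, had log2 fold changes of 1.0 (SE 0.414) and 1.23 (SE 0.450), each with 2 AZ6983 mice above every control. A6 was the highest AZ6983 mouse in all 7 late genes of granule and cytosol and in all 6 tested genes of the middle stage.

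The stefin A genes, which encode small inhibitors of cysteine proteases and stand in a cluster on chromosome 16, were near the limit of detection. Stfa2l1 had 1 to 8 counts per control (median 3) and 6 to 41 per AZ6983 mouse (median 15.5), and 3 AZ6983 mice were above every control. DESeq2 gave it a log2 fold change of 2.40 with an adjusted p of 0.0726 and called it in 6 of 12 fits with a mouse left out. Its transcript is 95.7% identical to that of Stfa2 over their alignment and shares 7.83% of its 75-base stretches with other genes. Stfa2 had 1 count over the controls and 10 over the AZ6983 mice, Stfa1 2 and 16, and BC100530 2 and 5, and the transcripts of Stfa1 and BC100530 are 98.1% identical. Stfa3 went the other way, with 19 counts over the controls and 9 over the AZ6983 mice. As the counting set aside reads that matched several places, the split between these genes is uncertain.

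Of the surface genes, the receptors for the growth factor and the chemokines of neutrophils had the largest log2 fold changes among those tested. Csf3r, the receptor for G-CSF, at chr4:126024550-126044440, was at 3.99 to 7.37 CPM in controls (median 5.11) and 5.64 to 19.2 CPM in AZ6983 mice (median 10.4). A1, A3, A4 and A6 were above every control, as for S100a8, and A5 was the lowest of the treated mice. The means were 5.29 ± 1.14 and 11.6 ± 5.59 CPM (SD, n = 6 each), with a log2 fold change of 1.13 (SE 0.287), an adjusted p of 0.447 in edgeR and 0.0471 in DESeq2 (exact permutation p = 0.0108). DESeq2 called Csf3r in 7 of 12 fits with a mouse left out. Cxcr2, the receptor for the chemokines that draw neutrophils from marrow into tissue, at chr1:74153989-74161246, ran from 0.476 to 3.72 CPM in controls (median 1.96) and from 2.23 to 9.68 CPM in AZ6983 mice (median 4.70). It too was above every control in 4 treated mice, with a log2 fold change of 1.53 (SE 0.488) and an adjusted p of 0.447 in edgeR and 0.147 in DESeq2 (exact permutation p = 0.0173).

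Ly6g, the antigen by which mouse neutrophils are usually sorted, had 0 to 5 counts per control (median 2) and 1 to 27 per AZ6983 mouse (median 13), with 4 AZ6983 mice above every control. It did not pass the filter, and its log2 fold change without the filter was 2.31 (SE 0.680). Mcemp1, a membrane protein of mast cells and neutrophils, had 10 to 26 counts per control and 15 to 67 per AZ6983 mouse, a log2 fold change of 0.99 (SE 0.411, adjusted p = 0.466 in edgeR). The remaining surface genes did not reach an unadjusted p of 0.05: Trem1, an activating receptor of myeloid cells, at 0.92, Fpr1 at 0.73 and Fpr2 at 0.35, receptors for formylated bacterial peptides, Il1r2, the decoy receptor of interleukin 1, at 0.57, and Ltb4r1, the leukotriene B4 receptor, at 0.27 on the log2 scale, with adjusted p of 0.535 to 0.731 from edgeR. For Fpr2, 20.9% of its 75-base stretches occur in other genes.

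**Figure D2:**
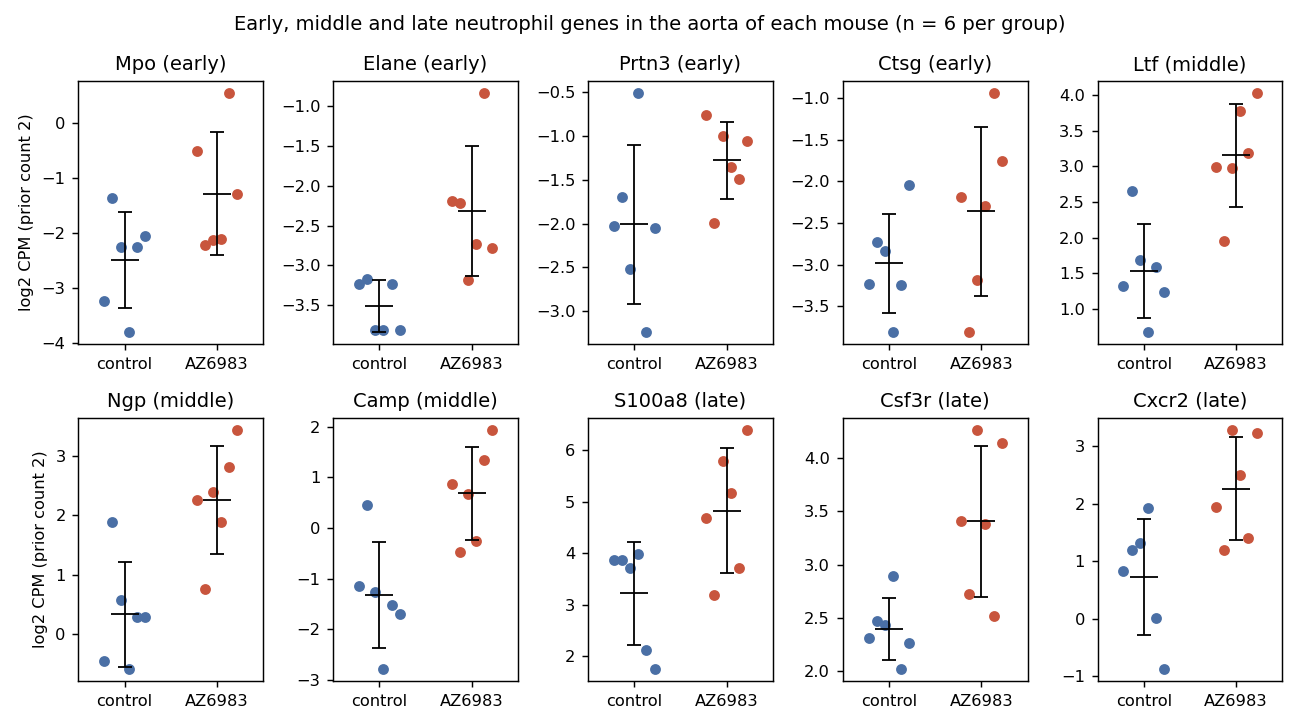
Log2 CPM (prior count 2, vertical axes, each with its own range) of the 4 early, 3 middle and 3 late genes in each of 6 control and 6 AZ6983 mice, 1 point per mouse, with lines for the mean and bars for the SD. In none of the 10 genes do the groups separate in full, and 5 of 6 AZ6983 points of Ltf and Elane lie above all control points.

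Per kilobase of exon, which allows levels to be compared between genes, the late gene S100a8 was at 15.7 ± 8.06 CPM per kb in controls and 53.7 ± 41.0 in AZ6983 mice (SD, n = 6 each), far above all other stage genes. In controls Csf3r (1.47), Ngp (1.17), Ltf (0.897), Cxcr2 (0.627) and Camp (0.577 CPM per kb) followed. The early genes were lowest, at 0.130 CPM per kb for Prtn3, 0.0625 for Ctsg, 0.0388 for Mpo and 0.0185 for Elane, and from Csf3r down to Elane each gene was within 1 SD of the next in this order. In AZ6983 mice Ngp (4.50) came ahead of Csf3r (3.22), Ltf (2.82), Camp (2.40) and Cxcr2 (1.81 CPM per kb), again with neighbours within 1 SD. The 4 early genes were between 0.137 and 0.207 CPM per kb in AZ6983 mice, within 1 SD of each other.

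The balance of the stages varied widely among the mice of either group. In controls there were 8.16 to 50.3 counts of middle genes (Ltf, Ngp and Camp) per 100 counts of late genes (S100a8, Csf3r and Cxcr2), with a median of 33.4, and in AZ6983 mice 17.2 to 86.9 with a median of 34.4. By this ratio of counts the medians were close, and 5 of the AZ6983 mice lay at 35.7 or lower, within the control range. A5, whose library differed most from the others over all genes, stood above all others with 86.9. The part of that difference in the ratio was not tested. Early genes per 100 late counts were 1.32 to 6.00 in controls (median 2.49) and 0.790 to 12.3 in AZ6983 mice (median 1.98), again with A5 highest and the next at 3.61. For the single pair of Ngp and S100a8, A5 had 53.4 Ngp counts per 100 of S100a8 (95% counting interval 44.1 to 64.5), the other AZ6983 mice 9.39 to 18.3, and the controls 3.76 in C4 to 35.1 in C6. The direction of the medians depended on the genes and the measure. Most late counts in controls were of S100a8, with 1809 against 885 of Csf3r and 316 of Cxcr2. Ngp counts per 100 of Csf3r had a median of 25.5 in controls and 39.9 in AZ6983 mice. Per 100 of S100a8 the medians of Ngp were 17.9 and 15.4. With all 6 genes taken per kilobase of exon, middle per 100 late had medians of 19.98 and 17.4. No test was run on these ratios, which describe single mice.

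**Figure D3:**
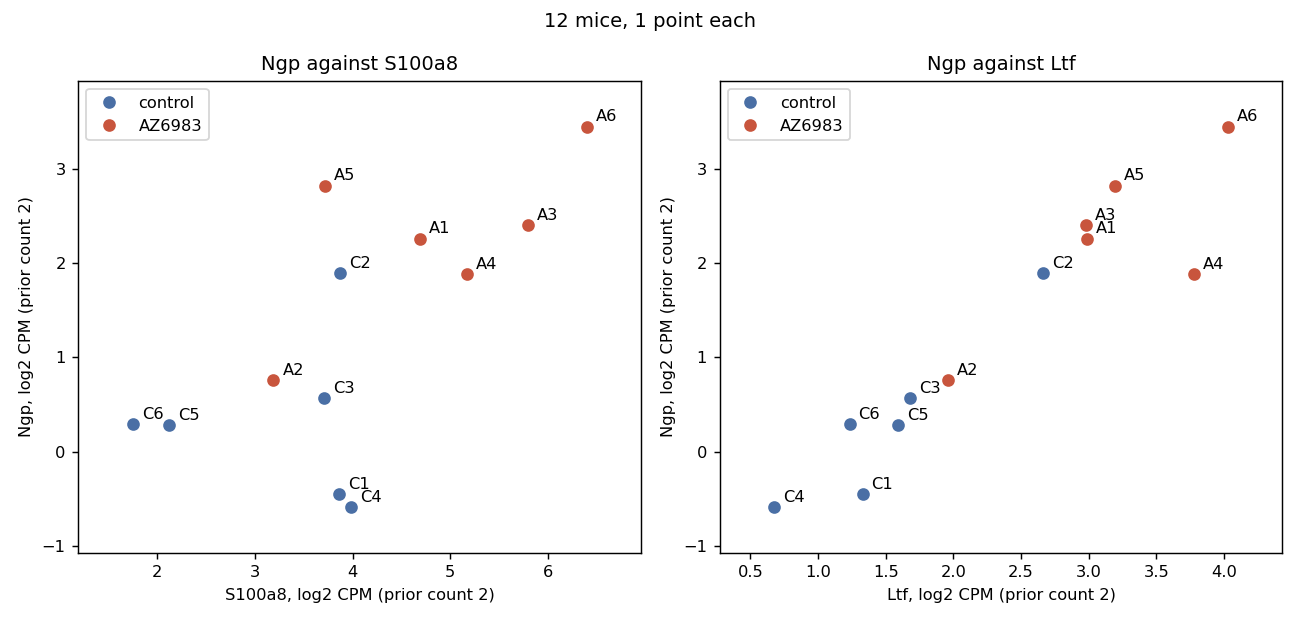
Ngp (vertical axis, log2 CPM with a prior count of 2) against S100a8 (left panel) and against Ltf (right panel) in 12 mice, 1 labelled point per mouse, coloured by group. Ngp and Ltf rise together along a line, whereas A5 has a high Ngp beside an S100a8 in the control range and C4 the lowest Ngp beside the highest S100a8 of the controls.

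Across the 12 mice, the middle genes examined followed each other closely, as did the late genes examined, and no pair of early genes was examined. The r over all 12 mice holds the difference between the groups as well. In log2 CPM, Ltf and Ngp had Pearson's r = 0.942 (permutation p = 4.0e-05, adjusted 1.0e-04 over 10 pairs of genes) and Spearman's rho = 0.902 (permutation p = 0.00012), with r = 0.900 without C4 and A6, the mice farthest from the median of Ltf. Within groups r was 0.941 in controls (p = 0.0167, exact permutation, adjusted 0.0741) and 0.786 in AZ6983 (p = 0.0861, exact permutation, adjusted 0.172). Ngp with Camp gave r = 0.954 (permutation p = 2.0e-05, rho = 0.944, 0.927 without the same mice), Ltf with Camp 0.901 (permutation p = 8.0e-05, rho = 0.909, 0.815 without them), and S100a8 with Csf3r 0.902 (permutation p = 4.0e-05, rho = 0.874, 0.899 without C6 and A6). S100a8 with S100a9 gave r = 0.996 (permutation p = 2.0e-05, rho = 0.965, 0.993 without C6 and A6). Within groups, with p unadjusted from exact permutation, r was 0.860 in controls (p = 0.0778) and 0.941 in AZ6983 mice (p = 0.00556) for Ngp with Camp. For Ltf with Camp it was 0.964 (p = 0.0222, exact permutation) and 0.569 (p = 0.236). For S100a8 with Csf3r it was 0.686 (p = 0.075, exact permutation) and 0.938 (p = 0.0222). Between stages the r over all 12 mice, which holds the difference between the groups as well, was lower. S100a8 and Ltf had r = 0.722 (permutation p = 0.00848, adjusted 0.0141, rho = 0.622), and without C6 and A6 r was 0.560. It was 0.119 within controls (p = 0.825, exact permutation) and 0.755 within AZ6983 (p = 0.0833, exact permutation), so the pooled relation did not hold within the controls. Within AZ6983 this value was above the 0.569 of Ltf with Camp, a pair of the same stage. Csf3r and Ltf had r = 0.669 (permutation p = 0.0194, adjusted 0.0277, rho = 0.643, and r = 0.552 without A3 and A6), with -0.321 in controls and 0.482 in AZ6983 mice. The difference between the within-group values was not tested.

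The higher levels were carried by some AZ6983 mice and not by others. Among all 21 tested members, A3 was above every control in 19, A6 in 18, A1 in 11, A4 in 10, A5 in 5 and A2 in 0. Among the 14 genes with an unadjusted p under 0.05, A3 and A6 were above every control in 14 of 14, A1 and A4 in 10, A5 in 5 and A2 in 0. These 14 were picked by the group difference in the same mice, so their counts only describe which mice carried it. A6 was the highest treated mouse in 12 of these 14. By role, A5 was above every control in 3 of the 6 tested middle genes, 2 of the 7 late granule genes and 0 of the 8 surface genes. Summed over all 36 members the level was 38.4 to 93.2 CPM in controls (median 66) and 56.4 to 319 CPM in AZ6983 mice (median 144), where A2 and A5 were below the highest control, C4.

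Blood and other cells were read from fixed lists of markers in the same libraries. Red cell globins summed to 522 to 3246 CPM in controls and 439 to 5051 CPM in AZ6983 mice, and 0 of 4 had an unadjusted p under 0.05. A6, with the highest neutrophil genes, was among the lowest in globins, and A1 was highest. S100a8 and Hbb-bs, a beta globin, had r = 0.305 over the mice (permutation p = 0.34, rho = 0.364), and r was 0.565 without C6 and A6. Ltf and Hbb-bs had r = -0.07 (permutation p = 0.814, rho = -0.15), which turned to 0.341 without C4 and A6. Platelet and megakaryocyte genes summed to 24.3 to 49.8 CPM in controls and 24.5 to 286 CPM in AZ6983 mice. A3 was highest, far from the other AZ6983 mice at 24.5 to 63.9 CPM. Of 9 genes tested, 6 were higher at an unadjusted p under 0.05, with A3 included. S100a8 and Pf4, a platelet chemokine, had r = 0.457 (permutation p = 0.169, rho = 0.580), and r was 0.667 without C6 and A6. Within controls and within AZ6983 mice r was 0.406 and 0.174 for S100a8 with Hbb-bs, -0.60 and -0.17 for Ltf with Hbb-bs, and 0.159 and 0.538 for S100a8 with Pf4. The part of blood or platelets in the neutrophil genes was not tested.

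**Figure D4:**
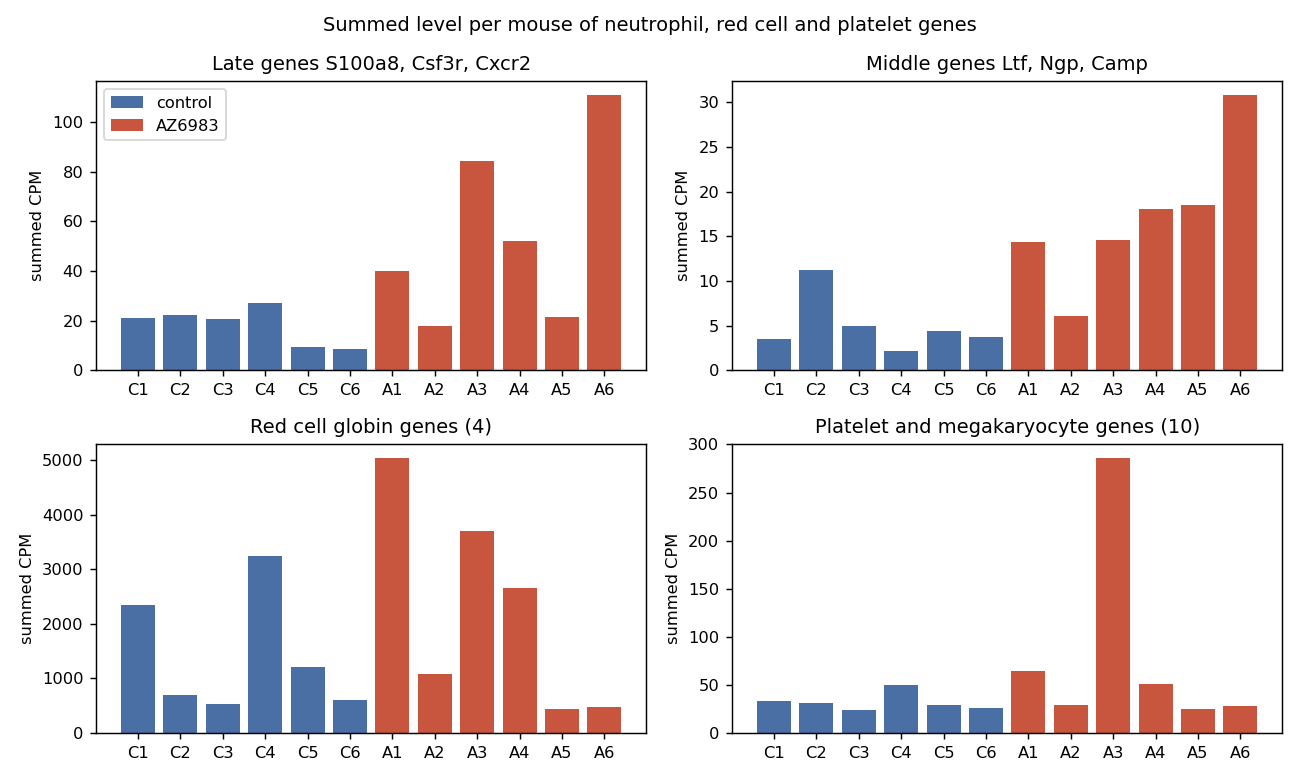
Summed CPM per mouse (vertical axes from 0, each with its own range) of the 3 late neutrophil genes, the 3 middle neutrophil genes, 4 globin genes and 10 platelet and megakaryocyte genes, 1 bar per mouse, coloured by group. A6 has the tallest bars for both sets of neutrophil genes but one of the lowest for globins, and A3 exceeds all others in platelet genes at 286 CPM.

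Markers of other marrow cells ranged from near 0 to abundant. Klf1, which defines erythroid precursors, had 0 to 6 counts per mouse in either group, and of 5 erythroid precursor genes tested 0 had an unadjusted p under 0.05. The summed erythroid list ran from 80.7 to 215 CPM in controls and 64.3 to 302 CPM in AZ6983 mice. Of the B cell precursor genes, Rag1 and Dntt, which T cell precursors transcribe as well, were highest in A4. Both were higher in AZ6983 at an unadjusted p under 0.05 (2 of 2 tested). Their group medians were close, 5.50 (control) and 5.27 CPM (AZ6983) for Rag1, and 1.36 and 1.62 CPM for Dntt. The list summed to at most 17.9 CPM in controls and 734 CPM in A4, of which Rag1 was 577 CPM. Vpreb1, Vpreb3 and Igll1 of this list did not share the rise. They had 21, 16 and 2 counts over the controls, against 23, 16 and 0 over the AZ6983 mice. All 7 T cell genes tested were higher in AZ6983 at an unadjusted p under 0.05, with A4 highest in each, and without A4 this was 0 of 7. The other 5 AZ6983 mice summed to 8.74 to 19.2 CPM over the T cell list, within the control range of 3.65 to 20.6 CPM. Epx, of eosinophils, had 0 to 5 counts per mouse, and the eosinophil and basophil list summed to 2.86 to 5.44 CPM in controls and 2.54 to 3.86 CPM in AZ6983 mice, with Ear2 lower (log2 fold change -0.54). Bone and cartilage markers were lower at an unadjusted p under 0.05 for Ibsp and Phex (2 of 4 tested) and for Col2a1 and Col11a2 (2 of 6), with lists at 96.9 to 127 and 89.5 to 158 CPM in controls and 80.3 to 116 and 75.4 to 154 CPM in AZ6983 mice. Acp5 and Ctsk made up most of the bone sum, with means of 65.3 and 33.1 CPM in controls. In AZ6983 mice their means were 56.7 and 28.4 CPM. Bglap, Bglap2, Mepe, Dmp1 and Sp7 had at most 7 counts in any mouse.

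Of the 10 macrophage genes, which mark the main resident myeloid cells of the vessel wall, 0 had an unadjusted p under 0.05, and they summed to 946 to 1475 CPM in controls and 799 to 1469 CPM in AZ6983 mice. Of the monocyte genes Ly6c2 was higher at an unadjusted p under 0.05 (log2 fold change 0.93, SE 0.308), and the list had sums of 439 to 617 and 448 to 634 CPM, most of it Ace (means of 299 and 296 CPM). Mast cell genes (0 of 7, sums of 49.7 to 67.2 and 58.9 to 85.0 CPM) and B cell genes (0 of 6, sums of 4.02 to 30.3 and 6.25 to 15.0 CPM) gave no such gene. Smooth muscle gave 0 of 5, with sums of 13098 to 17511 and 10135 to 17528 CPM, and endothelium 1 of 5, Vwf, which platelets carry as well, with sums of 945 to 1122 and 1039 to 1248 CPM. The marker genes tested had an adjusted p over 10% FDR in edgeR. DESeq2 on every gene called 5 of the markers at 10% FDR. Gp1ba, a platelet receptor chain (adjusted p = 0.0458), and Vwf (0.0827) were higher, and Ibsp (0.0201), Col2a1 (0.00654) and Clec3a, a cartilage lectin (0.0641), were lower. Gp1ba had 2 to 6 counts per control and 10 to 40 per AZ6983 mouse, so that its groups did not overlap.

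Other genes of neutrophil function were taken from 3 more lists. Among genes of the phagocyte oxidase and the leukocyte integrins, which macrophages share, Cybb, the catalytic subunit of the oxidase, stood at -0.14 (SE 0.188) and Itgam, an integrin chain of myeloid cells, at -0.02 (SE 0.125) on the log2 scale, and neither reached an unadjusted p of 0.05. Of 15 tested genes of mature neutrophils that are not members, 6 were higher and 0 lower at an unadjusted p under 0.05, against 7.38% and 2.81% of all genes. Asprv1, an aspartic protease, was at 1.87 (SE 0.526) and Mgam, maltase-glucoamylase, at 1.39 (SE 0.333) on the log2 scale. Mgam had 6 to 14 counts per control and 15 to 54 per AZ6983 mouse and was the gene of this list whose groups did not overlap. The others were Ifitm6 at 0.93, Hdc, the enzyme that makes histamine, at 0.57, Mmp9, the gelatinase of neutrophil granules, at 0.51 and Mxd1 at 0.32. Mgam, Ifitm6 and Mxd1 are in the study's own list as well. Of 9 tested genes that recruit neutrophils or release them from marrow, 0 were higher and 2 lower at an unadjusted p under 0.05: Cxcl5, a ligand of Cxcr2, at -0.88 (SE 0.403) and Sele, the endothelial E-selectin, at -0.60 (SE 0.251). Both were highest in control C6, at 1.43 CPM for Cxcl5 and 8.77 CPM for Sele. The adjusted p of these 3 lists in edgeR was 0.447 or higher.

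When the edgeR model also held the no-gene share of reads, 6 of the 21 members had an unadjusted p under 0.05 in the higher direction, against 1.87% of all genes in that fit, and 0 passed 10% FDR. The 6 were Ltf, Ngp, S100a8, S100a9, Csf3r and Cxcr2. The log2 fold change became 1.22 for Ltf (SE 0.471), 1.23 for Ngp (0.564) and 1.38 for Camp (0.693), lower than without the covariate. For S100a8 it was 1.85 (0.838) and for Csf3r 1.25 (0.430), a little higher than without it. The median over the 21 members was 1.14.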

How the data were processed

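Stranded total RNA libraries from 12 thoracic aortas, 1 per mouse, were sequenced, and the authors deposited raw counts per gene symbol. The submitters' processing notes name CASAVA 1.8.2, STAR 2.5.2b, HTSeq 0.6.1p1 and build mm10, while the annotation and the strand setting are not given in the sources used here. The 3 rows that name no gene were left out: reads on no gene (8.02% to 14.9% per mouse), reads with several places (18.1% to 23.2%) and ambiguous reads (0.606% to 0.698%). Reads set aside in this way lower the counts of near-identical genes. The column for A1 holds 3 of the 4 digits of its mouse number, and the other 11 matched in full. A number of unstated meaning ends each column, with controls at 3 to 7 and 12 and AZ6983 at 1, 2 and 8 to 11, and its part in the results was not tested. No batch or pairing is given, and each library is a separate mouse. The 66 pairs of libraries differed by a chi-square of 12.0 to 226 per degree of freedom, so none were copies, and pairs with A5 differed most.

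Counts of all genes were tested in R 4.3.3 with edgeR 4.0.16 (TMM, filterByExpr, quasi-likelihood test, no covariate), with Benjamini-Hochberg adjustment over 15857 genes at 10% FDR. DESeq2 1.42.0, the tool of the study's methods, and limma-voom (limma 3.58.1) were alternatives, as were other normalizations, no filter, a mean count of 20, the no-gene share of reads as covariate and each mouse left out. DESeq2 with a mouse left out and the fit without A1 and A4 were chosen after seeing the data. The 10 stage genes were compared by exact permutation over 924 assignments, two-sided, where the smallest p is 0.00216, with no adjustment. Correlations used 100000 permutations with scipy 1.17.1, whose smallest p is 2e-05. Precision falls with the count, so counts are given for low genes. Exon lengths and gene positions came from GENCODE on GRCm38 and promoters from RefSeq on GRCm38.p6, and stretches of 75 bases were compared between transcripts, with alignment by Biopython 1.88. Named singly were the 10 stage genes, the members with an unadjusted p under 0.05 and the stefin A family, while others are given by range and counts. Members and lists were chosen with earlier results of these data known. The steps were tested on simulated data. A result on 1 gene of the marker and function lists is not reported here.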

Additional observations from a re-analysis of the deposited data

Results flagged for a closer look

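In each of 72 groups of 6 mice, made of the 36 members in either treatment group, the highest and lowest log2 CPM were compared with the nearest of the others. In 5 groups a mouse was set apart, where chance gives 3.6 for values without ties. The 1 such case with more than a few counts is Gfi1 in the AZ6983 group: A4 was at 3.12 log2 CPM with 323 counts, and the other 5 mice at -1.96 to -0.94 with 5 to 11 counts. A4 also had the highest T cell genes, 407 CPM in sum, and their part in this value was not tested. The other 4 cases are genes with 0 counts in 5 controls and 1 or 2 in the sixth. With 5 values tied, any count sets the sixth mouse apart, so the 3.6 does not apply to these cases. They are Ms4a3 in C2 (-3.18 log2 CPM, 1 count), Stfa2 in C2 (-3.18 log2 CPM, 1 count), Stfa1 in C3 (-2.84 log2 CPM, 2 counts) and BC100530 in C3 (-2.84 log2 CPM, 2 counts), while the controls at 0 counts stand at -3.81 log2 CPM. The transcripts of Stfa1 and BC100530 are 98.1% identical.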

How the results depend on the processing

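No paired analysis was possible because the labels give mouse numbers that no 2 mice share, and the replicate numbers follow only the order of the samples. Members called at 10% FDR numbered 0 in edgeR under every normalization and filter tried and with each mouse left out, 7 in DESeq2 on every gene, 6 in DESeq2 on the filtered genes and 0 in limma-voom. With a mouse left out DESeq2 called 1 to 13 members: 1, Ltf, without C1, C5 or A6, 2 without C3 or A3, 4 without A4, 6 without C4 or C6, 8 without C2 or A1, 11 without A5 and 13 without A2. Over all genes edgeR called 0, but 2 without TMM, 1 without C6 or A1, 1 without both A1 and A4 and 27 without A5, none of them a member, and 0 with any other mouse left out. DESeq2 called 92 genes, 84 on the filtered genes, and 20 to 388 with a mouse left out (20 without A6, 23 without C1 or C5, 29 without C3, 62 without C4, 67 without A4, 69 without A3, 119 without A2, 233 without C6, 311 without C2, 383 without A1, 388 without A5). Members higher at an unadjusted p under 0.05 numbered 14, against 7.38% of all genes. They numbered 23 without the filter, which fits more genes (6.45% of all), and 6 when the no-gene share of reads was a covariate (1.87% of all). With a mouse left out they numbered 11 to 17 in edgeR and 15 to 22 in DESeq2, where 22 was reached without C4 or A2. For the fits with a mouse left out no share of all genes is given, so these counts are not read as a result about the members. The median log2 fold change of all members tested in a setting, whatever their p, was 0.98 to 1.60 over all settings. Members whose groups did not overlap numbered 0, but 3 of 21 without C2, 1 without C4 and 2 without A2, against 0.952%, 0.391% and 0.385% of all genes in the same comparisons, where fewer mice are compared. Marker genes of other cells with an unadjusted p under 0.05 numbered 23, and 15 to 29 with a mouse left out, 15 without A4. Beyond what is stated here and in the report, the cause of these shifts was not tested. The log2 fold changes of the named members kept their direction in the settings run, while the correlation of Ltf with Hbb-bs went from -0.07 in log2 CPM to 0.00799 in CPM, and the early genes and stefins are limited by their few counts.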

Other observations

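Ltf, Ngp and Camp, the 3 middle genes, lie within 1.20 Mb of each other at chr9:109847379-111042767 on GRCm38, an interval chosen after their values were seen. The 22 other genes tested there had log2 fold changes of -0.01 to 1.05 with a median of 0.15. At an unadjusted p under 0.05 in edgeR's quasi-likelihood test 4 were higher (Gm42432, Ptpn23, Nbeal2 and Als2cl) and 0 lower. Nbeal2 is known for the granules of platelets and neutrophils.

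Of the genes that feed the supply of neutrophils, Csf3, the gene of G-CSF, had 0 to 2 counts per control and 0 to 4 per AZ6983 mouse. Cxcl12, the chemokine that holds neutrophils in marrow, had mean levels of 144 ± 15.4 (control) and 160.2 ± 23.4 CPM (AZ6983, SD, n = 6 each), and its log2 fold change was 0.15 (SE 0.101, adjusted p = 0.588 from edgeR). Cxcl1, a ligand of Cxcr2, stood at -0.61 on the log2 scale (SE 0.353, adjusted p = 0.548 from edgeR), with control C6 highest at 7.72 CPM and AZ6983 mice at 1.23 to 4.29 CPM.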
